A study of Mus musculus with 2 samples.

Results

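Interferon-response T_reg_ cells are *Foxp3*-expressing regulatory T cells that carry transcripts of genes induced by interferons. They were chosen by the transcript counts of each cell, in unique molecular identifiers (UMIs, which count captured transcript molecules). A member had at least 1 UMI of *Foxp3*, none of *Cd8a*, *Cd8b1* or *Il1rl1*, and at least 4 UMIs summed over *Isg15*, *Ifit1*, *Ifit3*, *Rsad2*, *Usp18* and *Mx1*. The rule found 218 cells, which are 8.36% (exact binomial 95% interval 7.32 to 9.48) of 2609 T_reg_ cells and 2.40% of 9078 quality-filtered cells. They were compared with the 1487 T_reg_ cells (57.0%) that had no UMI of any of these 6 genes, called ISG-zero T_reg_ cells here, for interferon-stimulated genes.

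The cells came from untreated mice on the C57BL/6 background that bore B16 melanoma or B16–IL-33, the same line made to secrete the alarmin interleukin-33. Cells of tumors on day 9 were tagged with hashtag oligonucleotides. TCR-β+ T cells were then sorted, pooled and run as 1 library with 5′ chemistry. Tags of 1 tumor are not known to be different mice. The library held 14035 barcodes and 43420305 UMIs on mouse genes. Because it is 1 sample, no difference between cells was tested: every interval covers counting error only, and none of the differences has a replicate check.

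Type I interferons signal through the receptor chains IFNAR1 and IFNAR2 and the kinases JAK1 and TYK2 to STAT2 and IRF9, which act at promoters of antiviral genes. Interferon-γ signals through IFNGR1 and IFNGR2, and many genes answer both kinds of interferon. T_reg_ cells depend on the transcription factor FOXP3 and restrain other immune cells, including T cells that act against tumors.

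The label was first checked against its markers. *Foxp3* (ENSMUSG00000039521, chromosome X, 7573644 to 7595245; coordinates are those of GENCODE vM21 on GRCm38) stood at 602 CPM (UMIs per 1000000 UMIs of the cells; exact Poisson interval 553 to 655) in interferon-response T_reg_ cells and at 750.1 CPM in ISG-zero T_reg_ cells. At least 2 *Foxp3* UMIs were found in 63.3% (56.5 to 69.7) of the interferon-response cells and 53.6% (51.0 to 56.2) of ISG-zero cells. Both sets were required to hold 1 *Foxp3* UMI, which weighs more in CPM in the shallower ISG-zero cells. Some *Foxp3* UMIs can be free RNA: barcodes with under 200 genes held *Foxp3* at 262 CPM. Among 759 CD8+ T cells with 3 or more CD8 UMIs, at a median depth of 4103 UMIs, 7.51% (5.74 to 9.62) held a *Foxp3* UMI and 1.45% (0.726 to 2.58) held 2 or more. The T_reg_ cells, at a median depth of 2780 UMIs, were required to hold 1. The CD3 chains summed to 2759 CPM in interferon-response and 3154 CPM in ISG-zero T_reg_ cells. Barcodes with under 200 genes held the CD3 chains at 1943 CPM, so part of this level can be free RNA too. *Foxp3* and the interferon-induced markers are present by the rule. Apart from the rule, a T cell receptor clonotype was called in 158 of the 218 cells (72.5%). The same held for 900 of the 1487 ISG-zero T_reg_ cells (60.5%), whose median depth was lower.

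*Isg15* (ENSMUSG00000035692, chromosome 4, 156199424 to 156200818), which encodes a ubiquitin-like protein that is conjugated to other proteins, carried most of the selection. It gave 1721 of the 2507 UMIs of the 6 genes (68.6%), was found in 215 of the 218 cells, and had a median of 5 and a maximum of 58 UMIs per cell. *Isg15* stood at 1895 CPM (1806 to 1986). *Ifit1* (ENSMUSG00000034459, chromosome 19, 34640871 to 34650009), whose product binds RNA with foreign 5′ ends, was found in 115 cells at 328 CPM (292 to 368). *Ifit3* (ENSMUSG00000074896, chromosome 19, 34583531 to 34588731), which encodes a partner of IFIT1, was found in 77 cells at 188 CPM (161 to 219). *Rsad2* (ENSMUSG00000020641, chromosome 12, 26442746 to 26456452), which encodes the antiviral enzyme viperin, was found in 69 cells at 155 CPM (131 to 183). *Usp18*, which encodes the protease that removes ISG15 from proteins and damps interferon receptor signaling, was found in 73 cells at 131 CPM (109 to 157). *Mx1*, which encodes an antiviral GTPase, was found in 44 cells at 62.8 CPM (47.5 to 81.3). These levels follow from the choice of cells. UMIs of *Ifit3* and *Ifit1* can be divided with the close copies *Ifit3b* and *Ifit1bl1*, so the split between copies is uncertain.

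A less circular view leaves each gene out of its own selection. With cells chosen on the sum of the other 5 genes (at least 4 against 0), each gene was higher in the chosen cells. *Isg15* stood at 2960.4 CPM in the 70 cells so chosen and at 180 CPM in the 2099 cells at 0, a ratio of 16.4 (15 to 18). The ratio was 20.7 (15.8 to 27.5) for *Ifit1*, 34.9 (21.8 to 59.0) for *Ifit3*, 17.2 (11.8 to 25.7) for *Rsad2*, 10.3 (7.31 to 14.6) for *Usp18* and 16.4 (9.26 to 30.6) for *Mx1*. Each of the 6 genes was thus higher where the other 5 were found. These are the same counts that the rule used, so they are no separate check of the label.

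Detection of the 6 genes was uneven among the interferon-response T_reg_ cells. A single gene of the 6 was found in 44 cells, and that gene was *Isg15* in each of the 44. A further 59 cells held 2 of the genes, 64 held 3, 25 held 4, 17 held 5 and 9 held all 6. The sum had a median of 7 and a maximum of 85 UMIs, and 78 cells had 10 or more. Just inside the threshold, 44 cells had a sum of 4, and just outside it 89 *Il1rl1*-free T_reg_ cells had a sum of 3, so the class is a range taken from a continuous count.

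Depth moved with membership. Interferon-response T_reg_ cells had a median of 3660.5 UMIs (1176 to 11266) and ISG-zero T_reg_ cells 2390 UMIs (274 to 12238). Among *Il1rl1*-free T_reg_ cells, the share chosen was 1.58% (0.582 to 3.40) of 380 cells under 1500 UMIs, 9.03% (7.12 to 11.3) of 786 cells from 1500 to 3000, 12.3% (9.79 to 15.3) of 592 cells from 3000 to 5000 and 19.6% (15.6 to 24.2) of 347 deeper cells. When each cell was thinned to 1500 UMIs, which left out 380 shallower cells, 91 of 1725 *Il1rl1*-free T_reg_ cells (5.28%, 4.27 to 6.44) still had a sum of 4 or more, against 12.3% of the same cells unthinned. Barcodes with under 200 detected genes held *Isg15* at 200.2 CPM, so single *Isg15* UMIs can also be free RNA. Levels are given as CPM for this reason.

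Markers of other cell types were measured before the interferon genes, since they moved with the choice. All 13 macrophage marker genes on the list had UMIs in the interferon-response T_reg_ cells, and their sum was 1333 CPM there against 334 CPM in ISG-zero T_reg_ cells, a ratio of 4.0 (3.70 to 4.32). The most abundant was *Lyz2*, which encodes lysozyme, at 401 against 74.6 CPM. These UMIs were gathered in few cells: 25 interferon-response cells (11.5%, 7.56 to 16.5) held 3 or more of them and carried 1173 of the 1211 UMIs, while 160 cells held none. Of ISG-zero T_reg_ cells, 40 (2.69%, 1.93 to 3.65) held 3 or more. A clonotype was called in 11 of the 25 interferon-response cells and in 147 of the other 193. The 25 cells had lower T cell transcripts than the other 193, with CD3 chains at 1633 against 2984 CPM and *Foxp3* at 364 against 649.8 CPM. Whether they are doublets of a T_reg_ cell and a macrophage was not tested. In the other 193 cells the macrophage list was at 50.2 CPM, against 49.6 CPM in 1447 ISG-zero T_reg_ cells with fewer than 3 such UMIs, levels that the threshold itself keeps low. Without macrophage-UMI cells, the ratios with each gene left out of its own selection lay between 10.8 and 35.7.

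Macrophage-marker cells in the same library, 150 cells without CD3 UMIs and with at least 20 macrophage UMIs, themselves held the 6 genes at 1814 CPM. Results are therefore given for all cells and without cells of 3 or more macrophage UMIs, a threshold chosen after seeing the data. Of 10 dendritic cell genes, *Flt3*, *Xcr1*, *Clec9a* and *Siglech* were at 0 in interferon-response T_reg_ cells, and the list, led by *Cd74*, was at 1586 against 992 CPM in all cells and at 602 against 730.3 CPM without the macrophage-UMI cells. Among 6 B cell genes, *Ms4a1* and *Pax5* were at 0 and the sum was 42.9 against 17.2 CPM from 39 UMIs, most of them of *Cd79b*. Lists for NK cells (6 UMIs, *Klra8* and *Klrb1c* at 0), melanoma (18 UMIs, led by *Dct*), fibroblasts (1 UMI) and erythroid cells (3 UMIs) were near 0. At least 2 T cell receptor β chains were found in 6.88% (3.90 to 11.1) of interferon-response and 4.30% (3.33 to 5.46) of ISG-zero T_reg_ cells.

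Across the transcriptome, interferon-induced genes formed the main part of what was higher in interferon-response T_reg_ cells. Of 5315 genes with at least 100 UMIs in both sets of cells together, 98 had a CPM ratio of 2 or more (1.84%) and 68 had a ratio of 0.5 or less (1.28%), leaving out the 10 genes that the rule used. Without macrophage-UMI cells, 66 of 5138 genes (1.28%) were at 2 or more and 71 (1.38%) at 0.5 or less, and 61 genes were at 2 or more in both settings. Genes of the interferon lists made up 54 of the 98 and 53 of the 66. Genes of the macrophage and dendritic cell lists made up 9 of the 98. They made up 0 of the 66, but cells were left out by the macrophage genes themselves, of which 0 were then ranked, and 3 dendritic cell genes were. The median gene had a ratio of 0.916 (0.929 without macrophage-UMI cells), the level beside which the lists are to be read.

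**Figure D1:**
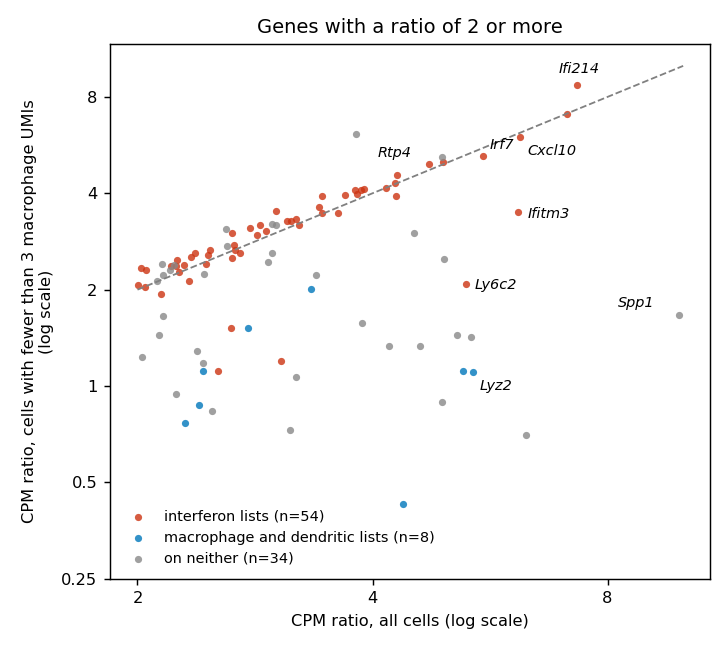
CPM ratio of interferon-response to ISG-zero T_reg_ cells for genes at 2 or more, in all cells (x axis, log scale) and without cells with 3 or more macrophage UMIs (y axis, log scale). Points are 54 genes of the interferon lists, 8 of the macrophage and dendritic cell lists and 34 on neither; *Cd14* and *Thbs1* are not drawn because their ratio on the y axis is 0 or has no value. The dashed line marks equal ratios: genes of the interferon lists lie mostly near it, with *Ifitm3*, *Ly6c2*, *Plac8*, *Lgals3* and *Ifitm2* below, and those of the macrophage and dendritic cell lists lie below it.

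The 15 highest ratios in all cells mixed both kinds of gene. *Ifi214* had a ratio of 7.30 (4.87 to 11.1) in all cells and 8.70 (5.78 to 13.2) without macrophage-UMI cells. *Phf11a* had 7.10 (4.91 to 10.3) and 7.10 (4.82 to 10.5), and *Cxcl10* had 6.18 (4.92 to 7.78) and 6.0 (4.63 to 7.77). *Irf7* had 5.53 (4.57 to 6.71) and 5.24 (4.27 to 6.43). These 4 genes stayed among the 15 highest in both settings. *Ifitm3*, which encodes a membrane protein that restricts viral entry, went from 6.15 (5.36 to 7.07) to 3.48 (2.80 to 4.33), and *Ly6c2* from 5.27 to 2.09. *Spp1*, which encodes osteopontin, went from 9.88 (8.01 to 12.2) to 1.67 (0.479 to 4.78), and 278 of its 283 UMIs lay in the 25 macrophage-UMI cells. *Ms4a6c*, *Lyz2*, *Atf3*, *Tyrobp* and *Lst1* were between 5.14 and 6.28 in all cells and between 0.704 and 1.45 without those cells. *Basp1* went from 4.95 to 2.5 (0.861 to 6.51), on 7 UMIs. *Cd14*, at 7.13, had no UMI in the other 193 interferon-response cells, and *Thbs1*, at 8.06, had none in either set. Some of the highest ratios thus belonged to transcripts that lay almost wholly in the 25 cells.

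Without macrophage-UMI cells, the 15 highest ratios were those of *Ifi214*, *Phf11a*, *Cxcl10*, *Irf7*, *Rnf213*, *Daxx*, *Rtp4*, *Phf11c*, *Ifi213*, *Xaf1*, *Trim30d*, *Ube2l6*, *Lgals3bp*, *Slfn1* and *Ifi208*, from 8.70 down to 3.94. All of these but *Rnf213* (5.18, 4.31 to 6.21), which encodes a large ubiquitin ligase, are on the interferon lists. *Daxx*, which encodes a histone chaperone, was at 162 against 32.3 CPM, a ratio of 5.02 (3.90 to 6.48). *Rtp4*, which encodes a chaperone of receptor transport, was at 292 against 59.2 CPM, a ratio of 4.93 (4.09 to 5.94). *Xaf1*, whose product antagonizes an inhibitor of apoptosis, was at 172 against 41.2 CPM, a ratio of 4.17 (3.29 to 5.27). The *Ifi200*, *Phf11*, *Slfn* and *Trim30* families hold near-identical copies, so levels of single copies are uncertain. The highest genes outside the rule were thus mostly other targets of interferon.

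Interferon genes themselves were hardly present. Of 10 ligand genes, the 9 type I and type III genes, among them *Ifnb1* and *Ifna4*, had 0 UMIs in interferon-response and in ISG-zero T_reg_ cells. The exact Poisson upper limit for each of these genes is 4.06 CPM in the former. *Ifng*, which encodes interferon-γ, had 31 UMIs in interferon-response cells, at 34.1 CPM (23.2 to 48.4) against 22.2 CPM, a ratio of 1.54 (0.988 to 2.33) and 1.74 (1.12 to 2.66) without macrophage-UMI cells. Receptor genes were close to or below their level in ISG-zero T_reg_ cells. The type I receptor gene *Ifnar1* had a ratio of 0.755 (0.563 to 0.997), and 0.802 (0.587 to 1.08) without macrophage-UMI cells. *Ifngr1*, for the ligand-binding chain of the interferon-γ receptor, had 0.782 (0.710 to 0.860) and 0.836 (0.756 to 0.922). *Ifnar2* had 1.11 (0.853 to 1.43) in all cells and 0.857 (0.620 to 1.16) without macrophage-UMI cells. Of 6 receptor genes, 4 had enough UMIs to be ranked, and none of these 4 was past a ratio of 2 or 0.5.

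Among signaling and transcription factor genes, *Irf7* and *Stat2* stood apart. Of the 15 genes of the JAK, STAT and IRF list, all 15 were ranked and 2 had a ratio of 2 or more. *Irf7* (ENSMUSG00000025498, chromosome 7, 141262706 to 141266481), which encodes the factor that amplifies type I interferon production, was at 263 CPM (231 to 299) against 47.6 CPM. *Stat2* (ENSMUSG00000040033, chromosome 10, 128270559 to 128292849) was at 88.1 CPM (69.8 to 110) against 25.6 CPM, a ratio of 3.44 (2.55 to 4.64). *Irf9*, whose product acts with STAT2, was less far apart, with a ratio of 1.51 (1.18 to 1.92). The kinase genes *Jak1*, *Jak2* and *Tyk2* had ratios of 0.858, 1.01 and 0.793. The list had a median of 1.11, and of 1.17 without macrophage-UMI cells. The feedback genes, 7 ranked, had a median of 0.955, and of 1.02 without macrophage-UMI cells. Of these, *Socs1*, which encodes an inhibitor of JAK kinases, was at 167 against 119 CPM, a ratio of 1.40 (1.16 to 1.69), and *Ptpn11* had 0.641.

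Interferon-induced genes outside the rule were broadly higher. The list has 97 genes, 93 of which are in the library and 69 of which passed the minimum. Of the 69, 43 had a ratio of 2 or more, 67 were above 1 and 0 were at 0.5 or less, with a median of 2.37 against 0.916 for all ranked genes. Without macrophage-UMI cells, 41 of 68 were at 2 or more, with a median of 2.34. A gene near the minimum passes more easily when it is high, so all 93 were also summed. Their sum was 30719 CPM in interferon-response and 17132 CPM in ISG-zero T_reg_ cells, a ratio of 1.79 (1.77 to 1.82), and 1.82 (1.80 to 1.85) without macrophage-UMI cells. The 24 genes below the minimum, among them *Oas2*, *Oasl1*, *Oasl2*, *Cmpk2* and *Ifi44*, together held 717 UMIs in interferon-response and 524 in ISG-zero cells, a ratio of 6.30 (5.62 to 7.07), and 5.26 (4.63 to 5.98) without macrophage-UMI cells. Of these 24, 23 had the higher CPM in interferon-response cells. The 24 include *Ifit3b* (48 against 2 UMIs) and *Ifit1bl1* (58 against 41), close copies of the rule genes *Ifit3* and *Ifit1*. Part of this ratio can therefore follow from the choice of cells.

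Single effectors of the list ranged widely. *Ifi27l2a* (ENSMUSG00000079017, chromosome 12, 103442167 to 103443680), its most abundant gene, was at 8308 CPM (8122 to 8498) against 3764 CPM, a ratio of 2.21 (2.15 to 2.27), and was also in free RNA, at 3132 CPM in barcodes with under 200 genes. *Bst2* (ENSMUSG00000046718, chromosome 8, 71534255 to 71537456), which encodes tetherin, a protein that holds budding viruses at the cell surface, was at 676 CPM (624 to 732) against 209.8 CPM. *Isg20*, which encodes an RNA exonuclease, was at 668 CPM (616 to 724) against 233 CPM. Both had ratios near 3, at 3.22 (2.90 to 3.58) and 2.87 (2.59 to 3.18). *Ms4a4b*, which encodes a membrane protein of T cells, was at 545 CPM (498 to 595) against 206 CPM, a ratio of 2.65 (2.36 to 2.96). At the low end, *Ifi27* had 0.752, *Zc3hav1* 1.00 and *Ly6e* 1.02. Not every gene of the list was therefore higher in these cells. *Plac8* and *Lgals3*, at 3.05 and 2.54 in all cells, were at 1.2 and 1.11 without macrophage-UMI cells.

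The enzymes that attach ISG15 to other proteins were higher with it. *Ube2l6*, for the conjugating enzyme, had a ratio of 3.79 (2.93 to 4.91), and *Herc6*, for the mouse ligase, 3.15 (2.27 to 4.34). *Trim25* had 2.48 and *Uba7*, for the activating enzyme, 1.57. All 4 genes of the list were ranked, 3 of them at 2 or more in both settings. Of 13 listed sensors of foreign nucleic acids, 6 were ranked and 4 of the 6 were at 2 or more. All 13 summed to 907 against 414 CPM, a ratio of 2.19 (2.01 to 2.38), and 2.28 (2.09 to 2.49) without macrophage-UMI cells. *Zbp1*, a sensor of left-handed nucleic acid that can start cell death, was at 454 CPM (411 to 499.6) against 146 CPM, a ratio of 3.11 (2.73 to 3.53). *Ddx58*, for RIG-I, had 2.66 (2.03 to 3.47), *Eif2ak2*, for the kinase PKR, 2.79 (2.01 to 3.85), and *Ifih1*, for MDA5, 2.33 (1.58 to 3.39). The DNA-sensing genes *Tmem173*, for STING, and *Aim2* had 0.775 and 1.06.

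Genes of the interferon-inducible GTPases, which act on vacuoles that hold pathogens, were also higher. Of 16 guanylate-binding protein and immunity-related GTPase genes, 14 were ranked and 7 had a ratio of 2 or more, with all 14 above 1 and a median of 2.01. Without macrophage-UMI cells, 8 of 14 were at 2 or more, with a median of 2.27. The list summed to 2257 against 1145 CPM, a ratio of 1.97 (1.87 to 2.08). *Iigp1* was at 186 CPM (159 to 216) against 54.0 CPM, a ratio of 3.45 (2.81 to 4.22). *Gbp9* had 3.01 (2.26 to 3.99) and *Gbp2* 2.64 (2.19 to 3.19), while the more abundant *Igtp* was at 477 against 308 CPM, a ratio of 1.55 (1.38 to 1.73). Several of these genes are close copies, so the split among them is uncertain.

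MHC class I antigen presentation moved little beside these. Of 23 genes, 22 were ranked and none of the 22 was past a ratio of 2 or 0.5, with a median of 1.12, and of 1.17 without macrophage-UMI cells. The list summed to 20149.6 against 19151 CPM, a ratio of 1.05 (1.04 to 1.07). The abundant *H2-K1*, for a classical heavy chain, was at 4188 against 4544 CPM, a ratio of 0.922 (0.890 to 0.954), and *B2m*, for the shared light chain, at 4551 against 4220.3 CPM, a ratio of 1.08 (1.04 to 1.12). Higher ratios were those of the nonclassical gene *H2-T22*, 1.69 (1.52 to 1.88), the immunoproteasome gene *Psmb9*, 1.55 (1.40 to 1.71), and *Nlrc5*, for the transactivator of class I genes, 1.57 (1.22 to 2.0). The chaperone gene *Canx* was lowest, at 0.667. Reads of H2 genes can be divided among copies.

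Of the chemokine genes induced by interferon, *Cxcl10* (ENSMUSG00000034855, chromosome 5, 92346638 to 92348889), whose product draws CXCR3-bearing T cells, stood apart. It was at 199 CPM (171 to 230.5) against 32.3 CPM, from 39 interferon-response and 57 ISG-zero cells. In the 25 macrophage-UMI cells *Cxcl10* was at 337 CPM, in the other 193 at 172 CPM, and in macrophage-marker cells at 380 CPM. *Ccl5*, *Ccl4* and *Ccl3* had ratios of 0.793, 0.892 and 1.33. *Cxcl10* was the sole gene past a ratio of 2 among the 4 ranked.

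**Figure D2:**
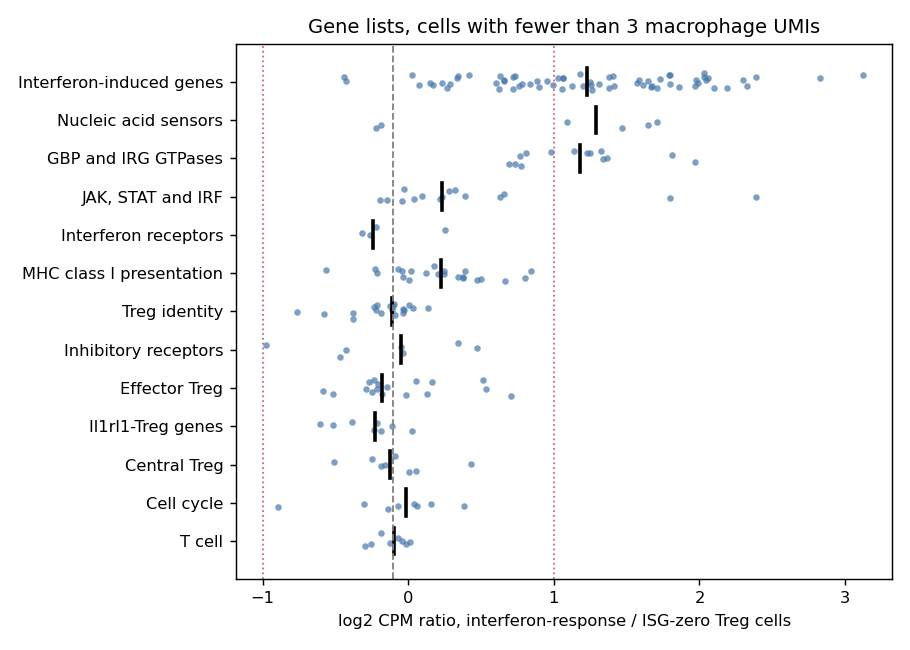
Log2 CPM ratio of interferon-response to ISG-zero T_reg_ cells, without cells of 3 or more macrophage UMIs, by gene list. Each point is a ranked gene, each black line the list's median, the dashed line the median of all ranked genes, and the dotted lines ratios of 2 and 0.5. The medians of the interferon-induced, sensor and GTPase lists lie to the right, at 2.34, 2.45 and 2.27 on the linear scale, against 1.17 for MHC class I presentation and 0.927 for T_reg_ identity.

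Taken by their median, genes of T_reg_ identity were slightly below their level in ISG-zero T_reg_ cells, and *Itgae* and *Nt5e* were further below. Of 20 genes, 19 were ranked and none of the 19 was past a ratio of 2 or 0.5. Their median was 0.858, and 0.927 without macrophage-UMI cells, beside 0.916 and 0.929 for all ranked genes. *Ctla4*, for an inhibitory receptor that is constitutive in T_reg_ cells, was at 1052 CPM (987 to 1121) against 1190.2 CPM, a ratio of 0.884 (0.824 to 0.948), and 0.976 (0.908 to 1.05) without macrophage-UMI cells. *Ikzf2*, for the transcription factor Helios, was at 728 against 888 CPM, a ratio of 0.819 (0.753 to 0.890). *Il2ra*, for the interleukin-2 receptor α chain, had 0.704 (0.618 to 0.80) in all cells and 0.770 (0.672 to 0.879) without macrophage-UMI cells. With *Il1rl1*-bearing ISG-zero cells, which the rule does not bar, left out as well, *Il2ra* had 0.906 (0.788 to 1.04) and *Ctla4* 1.02 (0.947 to 1.10), intervals that hold 1. Those *Il1rl1*-bearing cells held *Il2ra* at 706 CPM, against 370 CPM in *Il1rl1*-free ISG-zero cells. *Itgae*, for the αE integrin chain CD103, had the lowest ratio, 0.582 (0.456 to 0.736), at 88.1 against 151 CPM, and 0.590 (0.453 to 0.757) without macrophage-UMI cells. *Nt5e*, for the ectoenzyme CD73, had 0.603 (0.400 to 0.879). T cell genes in general had a median of 0.869, and of 0.934 without macrophage-UMI cells, so both medians were nearer to 1 without those cells.

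Genes of inhibitory receptors and their ligands differed among themselves. Of 9 checkpoint genes, 7 were ranked, and none of the 7 was past a ratio of 2 or 0.5. Their median was 0.880, and 0.965 without macrophage-UMI cells. *Havcr2*, for TIM-3, was at 31.9 against 61.7 CPM, a ratio of 0.518 (0.340 to 0.762). *Lag3* had 0.662 (0.574 to 0.761) and *Tigit* 0.687 (0.619 to 0.761), and *Pdcd1*, for PD-1, had 0.880 (0.654 to 1.17). *Cd274* and *Pdcd1lg2*, for the ligands PD-L1 and PD-L2, had 1.27 and 1.28. Without macrophage-UMI cells *Havcr2*, *Lag3*, *Tigit* and *Pdcd1* were at 0.508, 0.724, 0.743 and 0.965. With *Il1rl1*-bearing ISG-zero cells left out as well, they were at 0.488 (0.306 to 0.745), which is past 0.5, 0.629 (0.542 to 0.727), 0.694 (0.622 to 0.772) and 0.925. The 7 costimulation genes ranked, among them *Tnfrsf4* (0.870) and *Icos* (0.861), had ratios from 0.735 to 0.950.

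Of 17 effector genes, all ranked, *Gzmb* (ENSMUSG00000015437, chromosome 14, 56258838 to 56262260), for the protease granzyme B, stood highest. It was at 1722 CPM (1638 to 1809) against 1163 CPM, a ratio of 1.48 (1.40 to 1.57), and 1.63 (1.54 to 1.73) without macrophage-UMI cells. After thinning to 1500 UMIs, which left out 6 interferon-response and 359 ISG-zero cells, a *Gzmb* UMI was found in 62.3% (55.4 to 68.8) of 212 and 46.5% (43.6 to 49.5) of 1128 cells. Unthinned, the shares were 74.3% and 55.3%, at median depths of 3660.5 and 2390 UMIs, against 12% of macrophage-marker cells, at a median of 4875.5 UMIs. *Nkg7*, whose product takes part in granule release, had a ratio of 0.675, so cytotoxic genes did not move as a block. The list had a median of 0.892, and of 0.883 without macrophage-UMI cells.

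Lists for other T_reg_ states lay near the median of all genes. The 8 ranked genes of central T_reg_ cells had a median of 0.859, with *Ccr7* at 1.16 (0.836 to 1.59) and *Il7r* at 0.678. Immediate early genes had a median of 0.937, cell cycle genes 1.02 and ribosomal protein genes 1.00. *Mki67*, a marker of cycling cells, was at 35.2 against 62.4 CPM, a ratio of 0.565 (0.378 to 0.817), the lowest of the 8 ranked cell cycle genes. Of these 8, 5 were above 1, *Birc5*, for survivin, highest at 1.52 (1.03 to 2.20), and *Top2a*, for a topoisomerase, was at 0.962. For genes that go with the interleukin-33 receptor ST2, the rule matters, since it removed cells with *Il1rl1* from the interferon-response cells but not from the ISG-zero cells, 18.8% of which held it. Their median was 0.803 against all ISG-zero T_reg_ cells and 0.959 against those without *Il1rl1*. *Areg*, for the growth factor amphiregulin, had a ratio of 0.680 (0.616 to 0.749) against all ISG-zero cells, and of 0.898 (0.805 to 0.999) against those without *Il1rl1* when macrophage-UMI cells were left out.

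The 10 lowest ratios belonged to genes of few UMIs. They were *Il17a* (0.238, 0.0857 to 0.535), *Tff1* (0.242, 0.0956 to 0.514), *Exosc7* (0.276, 0.0991 to 0.623), *Fasn*, *Chst2*, *Sh3rf1*, *Inpp5f*, *Prr14l*, *Dynlt3* and *Nol8*, the last at 0.358 (0.150 to 0.732). Each had between 6 and 10 UMIs in interferon-response T_reg_ cells. *Il17a*, for the cytokine interleukin-17A, had its 116 UMIs of ISG-zero cells in 20 cells, and *Tff1* its 133 in 65 cells. Without macrophage-UMI cells, 5 of the 10 were again among the lowest 10, and the lowest was *Cxcl2*, for a neutrophil chemokine, at 0.0986 (0.0423 to 0.196) after 1.53 in all cells.

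Of genes at 2 or more, 35 were on no list in all cells and 13 without macrophage-UMI cells. Chosen after their values were seen, *Pml*, which organizes nuclear bodies, had a ratio of 3.01 in all cells and 3.18 without macrophage-UMI cells, and *Trafd1*, a regulator of innate signaling, had 2.98 and 3.20. *Alox5ap* and *Tgfbi* had 4.91 and 4.61 in all cells and 0.892 and 1.34 without macrophage-UMI cells. Other genes known from myeloid cells stayed high without them on few UMIs: *Ccl12*, for a chemokine, had 6.12 (1.94 to 19.8) on 8 UMIs, *Wfdc17* 3.1 (1.33 to 6.85) on 11 and *Cybb*, for an oxidase subunit, 3.01 (1.59 to 5.53) on 18, so myeloid transcripts were not all gone with the 25 cells.

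Summed levels of interferon-induced genes followed the count of the 6 genes without a step at the threshold. Among *Il1rl1*-free T_reg_ cells with fewer than 3 macrophage UMIs, the interferon-induced genes outside the rule summed to 17231 CPM (17089 to 17374) in 1174 cells at a sum of 0 and 19752 CPM in 408 cells at 1. They summed to 22111 CPM in 154 cells at 2 and 25141 CPM in 86 cells at 3. Inside the threshold they summed to 25664 CPM (24884 to 26461) in 40 cells at 4, 28711 CPM in 88 cells at 5 to 9 and 37860 CPM (37130 to 38601) in 65 cells at 10 or more, 2.20 times the level at 0. Each class was above the one before it, though the intervals at 3 (24592 to 25701) and 4 overlap. The GTPase list followed the same order, from 1157 CPM at 0 through 1576 CPM at 3 and 1833 CPM at 4 to 3116 CPM at 10 or more, 2.69 times the level at 0. Median depth was 2353 UMIs at 0, 3485 UMIs at 4 and 3677 UMIs at 10 or more. Much of the rise of the interferon-induced list below the threshold lay in *Ifi27l2a*, which was also in free RNA. *Ifi27l2a* was at 3703 CPM at 0, 7955 CPM at 3, 7625 CPM at 4 and 10773 CPM at 10 or more.

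Single genes differed in shape along this count. *Irf7* was at 45.4 CPM (38.4 to 53.3) at a sum of 0, 101 CPM at 3, 119 CPM at 4 and 377 CPM (308 to 458) at 10 or more. *Cxcl10* was between 12.5 and 30.3 CPM from 0 to 4, then at 76.4 CPM at 5 to 9 and 381 CPM at 10 or more, and so was high in the upper classes alone. *Ms4a4b* was at 207 CPM at 0, 313 CPM at 4 and 870 CPM at 10 or more. *Gzmb* was at 1180.1 CPM at 0, 2017 CPM at 3, 1683 CPM at 4 and 2435 CPM at 10 or more. *Itgae* was at 153 CPM at 0, 101 CPM at 3 and 85.1 CPM at 10 or more, and *Lag3* at 445, 408 and 255 CPM. *H2-K1* stayed between 4341 and 4684 CPM in all 7 classes, while *H2-T22* went from 328 to 762 CPM. T_reg_ identity genes at 10 or more were at 0.961 times their level at 0. They were highest at a sum of 2, at 1.08 times, and lowest at 5 to 9, at 0.904 times.

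**Figure D3:**
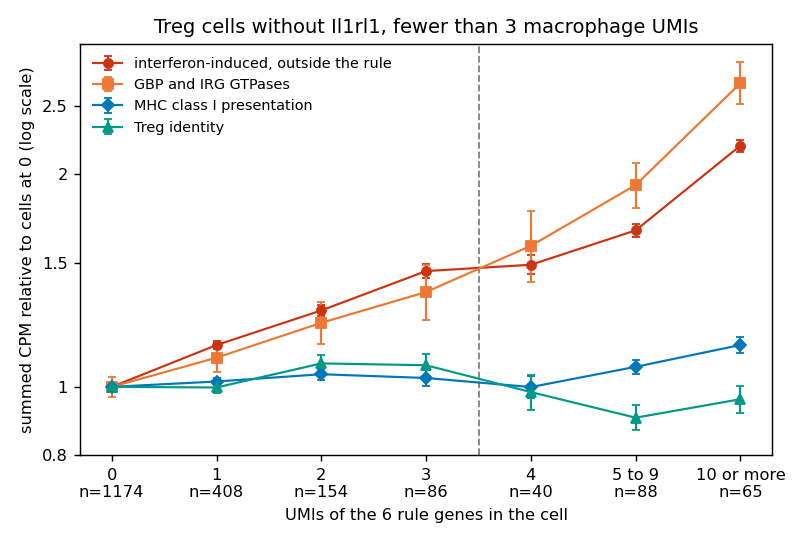
Summed CPM of 4 gene lists relative to cells at 0 (y axis, log scale) by the UMIs of the 6 genes in the cell (x axis), in *Il1rl1*-free T_reg_ cells with fewer than 3 macrophage UMIs. The interferon-induced and GTPase lists reach 2.20 and 2.69 at 10 or more UMIs, while MHC class I presentation and T_reg_ identity lie at 1.15 and 0.961; bars are exact Poisson 95% intervals and the dashed line marks the threshold of the rule.

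Per cell, the interferon-induced genes outside the rule took a median of 3.19% (1.09 to 7.65) of the UMIs of the 193 interferon-response T_reg_ cells with few macrophage UMIs, against 1.69% in *Il1rl1*-free ISG-zero cells. Of the 193 cells, 183 were above the ISG-zero median, but 76 (39.4%, 32.4 to 46.7) were above the ISG-zero 95th percentile, 3.47%. The distributions therefore overlapped. Of 86 cells at a sum of 3, 17 (19.8%, 12.0 to 29.8) were above that percentile, and of 40 cells at 4, 7 (17.5%, 7.34 to 32.8). Cells with 4 or more of the 6 genes detected exceeded it in 28 of 45 (62.2%, 46.5 to 76.2), and cells with *Isg15* alone in 11 of 39 (28.2%, 15 to 44.9). With *Ifi27l2a* taken out of the list, 47 of the 193 cells (24.4%, 18.5 to 31.0) exceeded the matching percentile. So did 3 of 40 cells at a sum of 4 (7.5%), 5 of 39 with *Isg15* alone (12.8%) and 23 of 45 with 4 or more genes (51.1%). Of 648 cells at sums of 1 to 3, 32 exceeded it (4.94%, 3.40 to 6.90), while 409 (63.1%) were above the matching ISG-zero median.

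The number of the 6 genes detected carried similar information. In cells with few macrophage UMIs, interferon-induced genes outside the rule stood at 28262 CPM (27435 to 29108) where 1 gene was detected, 28687 CPM at 2, 28814 CPM at 3, 36216 CPM at 4, 43359 CPM (41789 to 44972) at 5 and 41419 CPM at 6. The level was thus alike from 1 to 3 genes and higher from 4 on. The last class holds 7 cells and the class at 5 holds 17.

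*Il1rl1*, which encodes the interleukin-33 receptor ST2, was barred from the members by the rule. Among the 504 T_reg_ cells that had it, 47 (9.33%, 6.93 to 12.2) met the same sum of 4 or more, against 10.4% (9.09 to 11.7) of 2105 T_reg_ cells without it. After thinning to 1500 UMIs the shares were 4.88% (3.05 to 7.37) and 5.28% (4.27 to 6.44). The share was therefore not separable by *Il1rl1* at this depth. With macrophage-UMI cells left out, interferon-induced genes outside the rule had a ratio of 1.85 (1.80 to 1.91) in the 46 *Il1rl1*-bearing cells against *Il1rl1*-bearing ISG-zero cells, and of 1.82 (1.79 to 1.85) in interferon-response cells against those without *Il1rl1*. *Areg* separated the sets, at 2487 CPM (2252 to 2740.1) in the 46 cells and 539 CPM (488 to 594) in interferon-response T_reg_ cells, while *Irf7* was at 261 and 251 CPM. ISG-zero cells were separated by *Areg* too, at 1483 CPM (1400 to 1571) with and 600 CPM (574 to 627) without *Il1rl1*.

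The same sum was met in other T cells of the pool. It was reached by 110 of 838 CD8+ T cells (13.1%, 10.9 to 15.6) and 137 of 1727 conventional CD4+ T cells (7.93%, 6.70 to 9.31). After thinning, the shares were 5.73% (4.22 to 7.57) and 5.21% (4.12 to 6.49), beside 5.28% for *Il1rl1*-free T_reg_ cells, so no order among the 3 was detectable by this sum at equal depth. At least 1 UMI of the 6 genes was found after thinning in 31.4% (29.2 to 33.7) of *Il1rl1*-free T_reg_ cells, 25.5% (22.5 to 28.7) of CD8+ and 25.9% (23.6 to 28.2) of conventional cells, so by this count T_reg_ cells were above the others. Without macrophage-UMI cells, 55 of 2576 genes (2.14%) in CD8+ and 68 of 3834 genes (1.77%) in conventional cells had a ratio of 2 or more against cells at 0. Interferon-induced genes outside the rule had a summed ratio of 1.82 (1.80 to 1.85) in T_reg_ cells, 2.03 (1.98 to 2.08) in CD8+ cells and 2.20 (2.16 to 2.25) in conventional cells. The T_reg_ cells started higher, since their ISG-zero cells held the list at 17190.2 CPM, against 11269 CPM in CD8+ and 12709 CPM in conventional cells. The intervals of these ratios do not overlap, but they count pooled UMIs and leave out the spread among cells. The difference has no replicate check and was not tested.

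The ratios of some genes lay far apart between lineages. *Slfn5* had a ratio of 3.92 (3.05 to 5.02) in T_reg_, 18.2 (8.53 to 43.0) in CD8+ and 7.85 (6.04 to 10.2) in conventional cells. In the same order, *Isg20* had 3.18, 6.43 and 3.70, and *Irf7* 5.24, 4.29 and 6.53. *Ifitm3* had 3.48 (2.80 to 4.33) in T_reg_ cells and 0.699 (0.287 to 1.48) in CD8+ cells, where it was at 20.3 CPM, and 3.15 (2.33 to 4.24) in conventional cells. *Gzmb* was higher in each lineage, by 1.63, 1.56 and 1.48. Whether these ratios differ between lineages was not tested.

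Hashtags gave the tumor of few cells. Of 14035 barcodes, 11756 were also in the hashtag library, among them 215 interferon-response T_reg_ cells. Quality-filtered cells held 1046 tag UMIs beside 12193203 hashtag UMIs that match no tag, and 8134 of the 9078 had no tag UMI. Of the interferon-response cells, 24 had tags of a single tumor, 21 of them on 1 UMI. They were 17 of 245 tagged T_reg_ cells from B16 tumors (6.94%, 4.09 to 10.9) and 7 of 55 from B16–IL-33 tumors (12.7%, 5.27 to 24.5). The difference was 5.79 percentage points (−2.64 to 17.9), from cells of 1 sample per tumor. *Il1rl1*-bearing cells, which the rule bars, are in these denominators, 12 and 13 cells in the same order. Without them, a choice made after seeing the data, the shares were 7.30% (4.31 to 11.4) of 233 and 16.7% (6.97 to 31.4) of 42 cells, a difference of 9.37 points (−1.16 to 24.4). With a sum of at least 3 UMIs in place of 4, and all T_reg_ cells in the denominators, the difference was 10.6 points (0.0933 to 24). These intervals count cells from 1 sample per tumor, so they cannot show whether the tumors differ. Without macrophage-UMI cells the shares were 5.98% and 11.3% of all T_reg_ cells.

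Over all tagged T_reg_ cells with few macrophage UMIs, the 6 genes were at 324 CPM (287 to 365) in 234 cells from B16 tumors and 538 CPM (432 to 663) in 53 cells from B16–IL-33 tumors, a ratio of 1.66 (1.29 to 2.12). Interferon-induced genes outside the rule were at 18259 and 21061 CPM, a ratio of 1.15 (1.11 to 1.2), and GTPase genes at 1267 and 1449.8 CPM, a ratio of 1.14 (0.990 to 1.32). Median depths were 3235 and 2458 UMIs. Each tumor is 1 sample here, and a tag on 1 UMI can be a stray molecule, so tumor and tag error cannot be told apart.

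Clones of interferon-response T_reg_ cells were mostly seen in single cells. A clonotype was called for 158 interferon-response T_reg_ cells (72.5%, 66.0 to 78.3), and these fell into 157 clones, 1 of which held 2 of the cells. In clones of at least 2 T_reg_ cells were 11 of the 158 (6.96%, 3.53 to 12.1) and 53 of 900 ISG-zero T_reg_ cells (5.89%, 4.44 to 7.63). The difference was 1.07 points (−2.78 to 6.43), which holds 0. With clones defined by the β chain alone the shares were 12.9% (7.68 to 19.8) and 12.0% (9.78 to 14.5), and with clone size counted over all quality-filtered cells 11.4% (6.89 to 17.4) and 8.78% (7.01 to 10.8), so the share depends on how a clone is defined. Clones crossed the threshold of the rule: 9 clones with an interferon-response cell also held other T_reg_ cells, 3 of these clones an ISG-zero cell, and 2 clones held conventional cells. The largest had 4 T_reg_ cells.

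Promoters of the 6 genes and of the genes that went with them were searched, in the 250 bases before each start in the RefSeq promoter table (GRCm38.p6), for the letters GAAANNGAA on either strand (TTCNNTTTC in reverse). These are core letters of sites that IRF proteins bind. They were in 2211 of all 27025 genes of the table (8.18%) and in 340 of 4215 ranked genes with an entry (8.07%). All 4 genes of the rule with an entry, *Isg15*, *Ifit1*, *Ifit3* and *Rsad2*, had them. Of interferon-induced genes outside the rule, 17 of 37 (45.9%) with a ratio of 2 or more without macrophage-UMI cells had them, and 5 of 21 (23.8%) of the others. Of the 15 highest genes without macrophage-UMI cells, 14 have an entry and 6 had them, while *Irf7*, *Rnf213*, *Daxx*, *Phf11c*, *Xaf1*, *Ube2l6*, *Lgals3bp* and *Slfn1* did not. They were in 8 of 9 GTPase genes, 4 of 19 MHC class I presentation genes and 2 of 12 T_reg_ identity genes. A match describes the sequence and is not a measured site. Among the 15 highest genes, *Ifi213* and *Ifi208* have identical letters around their match, and *Ifi214* has the same matched letters. Matches of such copies are not independent of each other.

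The windows are shown for the 4 genes of the rule, and for *Bst2*, *Cxcl10*, *Ifi214* and *Phf11a*, which the rule did not use and which were picked among genes with a match. Each runs 5′ to 3′ along the gene's own strand, from RefSeq on GRCm38.p6, with 20 bases on each side of the matched letters, and capitals mark GAAANNGAA or its reverse. *Isg15* is chr4:156200856-156200916 on the minus strand with 3 matches, *Ifit1* chr19:34640760-34640833 on the plus strand with 3, *Ifit3* chr19:34583354-34583455 on the plus strand with 3, and *Rsad2* chr12:26456543-26456591 on the minus strand with 1. *Bst2* is chr8:71537568-71537622 on the minus strand with 2 matches. *Cxcl10* is chr5:92349074-92349122, *Ifi214* chr1:173536008-173536056 and *Phf11a* chr14:59297523-59297571, each on the minus strand with 1 match. The nearest match ends 58 bases before the start in *Isg15*, 76 in *Ifit1*, 94 in *Ifit3* and 111 in *Rsad2*.
Isg15: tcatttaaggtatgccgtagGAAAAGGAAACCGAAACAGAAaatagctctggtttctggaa
Ifit1: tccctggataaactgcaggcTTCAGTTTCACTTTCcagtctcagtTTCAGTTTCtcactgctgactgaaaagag
Ifit3: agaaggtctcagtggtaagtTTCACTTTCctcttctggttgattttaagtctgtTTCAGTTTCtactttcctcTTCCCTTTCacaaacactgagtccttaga
Rsad2: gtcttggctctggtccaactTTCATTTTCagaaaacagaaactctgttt
Bst2: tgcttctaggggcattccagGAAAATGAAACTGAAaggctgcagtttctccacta
Cxcl10: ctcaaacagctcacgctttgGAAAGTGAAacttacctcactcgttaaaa
Ifi214: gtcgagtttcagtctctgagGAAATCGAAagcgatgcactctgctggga
Phf11a: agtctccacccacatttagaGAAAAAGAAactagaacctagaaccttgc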

How the data were processed

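The authors deposited counts: raw UMI counts per gene and barcode of the expression library, UMI counts per hashtag, and a table of T cell receptor contigs with called clonotypes. Per the labels, Cell Ranger 6.1.1 was used on mm10; the matrix header names 3.1.0. The reference held human and mouse genes, and the 31053 mouse genes were used, of which 31011 were found in GENCODE vM21 for coordinates. The tool that counted hashtags is not given in the sources used here.

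Cells with 200 to 2500 detected genes and under 5% mitochondrial UMIs were kept. UMIs were summed over cells and divided by their total (CPM). Intervals are 95% (exact Poisson, Clopper-Pearson, exact conditional binomial for ratios, square-and-add for differences) and cover counting error only. Genes with 100 UMIs in both sets of cells together were ranked. A cell was given a tumor if all its tag UMIs were of 1 tumor. Of 342 genes on the lists, 5 are not in the features used. The genes named are those of the lists plus the 15 highest and 10 lowest ratios, leaving out the genes of the rule and T cell receptor segment genes; the same ranks without macrophage-UMI cells were added after seeing the data. The members and lists were chosen with earlier results of these data known. No doublet caller was run; cells with 3 or more UMIs of 13 macrophage genes and cells with several β chains were counted instead. T_reg_ cells had a *Foxp3* UMI and no CD8 UMI; CD8+ T cells had at least 2 CD8 UMIs, a CD3 UMI and none of *Foxp3* or *Cd4*; conventional CD4+ T cells had a *Cd4* and a CD3 UMI and none of *Foxp3* or CD8. Thinning drew 1500 UMIs per cell. The code was checked on simulated data. Python 3.11.15, NumPy 2.4.6, pandas 2.3.3, SciPy 1.17.1 and matplotlib 3.10.9 were used.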

Additional observations from a re-analysis of the deposited data

Results flagged for a closer look

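Signals outside the main measurement were looked for in the interferon-response T_reg_ cells and compared with a set limit of 3 UMIs. UMIs on human genes, which a mouse sample should lack, numbered 100 in these cells beside 908355 UMIs on mouse genes (0.0110%), and 591 in ISG-zero T_reg_ cells (0.0141%). The source of the human-gene UMIs was not tested. Hashtag UMIs that match no tag numbered 314679 in the interferon-response cells, against 27 that match a tag. What the unmatched hashtag UMIs are was not tested, and the tumor of most of these cells is therefore unknown.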

How the results depend on the processing

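For 8 results, 29 other settings gave 158 values, of which 131 were within a set tolerance, and no median crossed 1. The tolerance was a factor of 1.5 for a count of genes and the 95% interval of the reported value for the others, which is wide for the differences between tumors and in expanded clones. Settings with macrophage-UMI cells left out, the sum after thinning and the shares of *Il1rl1*-free cells were chosen after seeing the data. Thinning recounted the sum alone, in cells of 1500 UMIs or more, while *Foxp3*, CD8 and *Il1rl1* were judged at full depth. The share of T_reg_ cells chosen (8.36%) was 11.8% with a sum of at least 3, 5.44% with at least 6, 2.68% with the sum of the 5 genes other than *Isg15*, 9.84% in cells of 1500 UMIs or more, 4.22% after thinning and 10.4% of *Il1rl1*-free cells. The count of genes at a ratio of 2 or more (98) was 147 without an upper gene limit, at the edge of the tolerance, 65 with 2 *Foxp3* UMIs, 170 without *Isg15* in the sum, 149 and 63 with minimums of 50 and 200 UMIs, 1111 with any UMI in each set, and 63 without macrophage-UMI cells and with *Il1rl1*-free ISG-zero cells. The count at 0.5 or less (68) was 105 with a mitochondrial limit of 10%, 29 and 177 with sums of at least 3 and 6, 44 with 2 *Foxp3* UMIs, 623 without *Isg15*, 154 with CPM averaged cell by cell, 268 and 12 with minimums of 50 and 200 UMIs, 846 with any UMI in each set and 40 without macrophage-UMI cells and *Il1rl1*. This last count therefore depends on the number of UMIs per gene. The median of interferon-induced genes outside the rule (2.37) was 2.86 without *Isg15* in the sum and lay between 2.21 and 2.86 in all settings. The median of T_reg_ identity genes (0.858) was 0.783 with CPM averaged cell by cell, 0.927 without macrophage-UMI cells and 0.906 without these and *Il1rl1*. The MHC class I median lay between 1.04 and 1.2. The difference between tumors (5.79 points) was −10 with at least 2 tag UMIs, from 3 of 30 and 0 of 2 cells, 10.6 (0.0933 to 24) with a sum of at least 3, 9.37 in *Il1rl1*-free cells and between 2.88 and 7.45 in the others. The difference in expanded clones (1.07 points) lay between −0.385 and 2.61 points, below 0 with clones of at least 3 cells and without macrophage-UMI cells and *Il1rl1*, and each interval holds 0. Causes were not tested beyond what a setting changes by construction. At this depth, genes near 100 UMIs have wide intervals and shallow cells can rarely reach a sum of 4. No paired analysis was possible because the pool is 1 sample.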
